A study of Mus musculus with 9 samples.

Results

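Reactive astrocyte genes were followed in ventral hippocampus from 9 mice. The set was a fixed list of 10 genes of the astrocyte injury response, Gfap, Vim, Serpina3n, C4b, Osmr, S1pr3, Timp1, Cd44, Cp and Ptgs2, found by symbol among 40213 genes in each count file. All 10 were present, and 9 had enough counts to be tested. Timp1 did not.

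All animals were male wild-type C57BL/6J mice, naive and 8 weeks old when they entered the facility, and all libraries carry batch number 1. Sedentary controls (SED, 3 mice) had no treatment. Stress-susceptible mice (SUS, 3 mice) were restrained in tubes for 2 hours a day on 14 days. Exercised mice (SUS_LE, 3 mice) were stress-susceptible after the same restraint and then ran on a treadmill at low intensity for 2 weeks. How susceptibility was scored and when tissue was taken after the last session are not given in the sources used here. Both restrained groups hold selected animals, and neither resilient nor unstressed exercised mice were analysed here. Each library is a separately named mouse, and the tissue is whole, not sorted.

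Astrocytes respond to injury, inflammation and other strain by a graded change of state called reactivity. They build up intermediate filaments, and they switch on secreted protease inhibitors, complement, cytokine receptors and matrix receptors. Much of this runs through cytokines that bind receptors sharing the gp130 subunit and through the transcription factor STAT3. Several of the genes are not restricted to astrocytes: vessel walls and meninges also make Vim, choroid plexus epithelium makes Cp, and excitatory neurons make Ptgs2 when active.

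The deposited values are counts per gene. They are given below as CPM, library-size scaled counts adjusted by TMM factors, with mean ± SD of 3 mice. Library totals ran from 14172344 to 15582304 counts, and 1 count was worth about 0.07 CPM. All 12 astrocyte identity genes, Aqp4 and Slc1a2 among them, were present in every library, with a summed level of 5081 to 5810 CPM. Choroid plexus genes differed most between libraries. Their summed level was 3274 to 4800 CPM in SED, 56.6 to 6672 in SUS and 94.0 to 1660 in SUS_LE, with SUS 1, SUS_LE 1 and SUS_LE 3 the lowest. SUS 2 stood apart in vessel wall and meningeal genes, as given with Vim and Cp.

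The promoters of 3 members are shown because the results turn on Osmr and Ptgs2, and because Gfap defines the set. Each runs from 250 bases before the gene start to 50 after it, from RefSeq on GRCm38.p6, with base 251 the first of the gene. Coordinates are chr15:6874264-6874563 (minus strand) for Osmr, chr1:150099781-150100080 (plus strand) for Ptgs2 and chr11:102897151-102897450 (minus strand) for Gfap. Capitals mark the match to a searched motif.
Osmr: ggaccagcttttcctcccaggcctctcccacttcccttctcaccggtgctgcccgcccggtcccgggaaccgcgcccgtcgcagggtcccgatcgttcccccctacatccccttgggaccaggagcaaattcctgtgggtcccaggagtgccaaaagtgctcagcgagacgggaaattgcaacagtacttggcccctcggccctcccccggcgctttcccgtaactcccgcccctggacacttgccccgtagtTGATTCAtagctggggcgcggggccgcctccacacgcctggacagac
Ptgs2: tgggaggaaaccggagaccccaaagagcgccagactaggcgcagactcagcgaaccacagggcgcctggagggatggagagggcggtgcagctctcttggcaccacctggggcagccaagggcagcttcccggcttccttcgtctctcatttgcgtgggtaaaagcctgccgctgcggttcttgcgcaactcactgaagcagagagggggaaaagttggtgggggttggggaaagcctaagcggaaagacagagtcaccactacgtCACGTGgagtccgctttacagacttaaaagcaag
Gfap: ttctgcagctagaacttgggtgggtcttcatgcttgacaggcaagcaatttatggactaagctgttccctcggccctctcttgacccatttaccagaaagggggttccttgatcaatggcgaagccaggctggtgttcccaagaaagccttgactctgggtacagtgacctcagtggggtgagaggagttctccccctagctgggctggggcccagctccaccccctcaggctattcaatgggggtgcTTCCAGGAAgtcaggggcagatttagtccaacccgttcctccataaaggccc
The motifs searched were a STAT site (TTCNNNGAA), an AP-1 site (TGANTCA), a CRE (TGACGTCA) and an E-box (CACGTG), all of which read the same on both strands. Gfap held a STAT match at bases 249 to 257, across its start, as did 8.29% of all 32817 promoters of this length. Osmr held an AP-1 match at bases 254 to 260, just inside the gene, and Cp held one at bases 74 to 80; 7.81% of all promoters have one. Ptgs2 held an E-box at bases 267 to 272, found in 7.15% of all promoters. None of the 9 members searched held the full CRE letters TGACGTCA, found in 1.79%, and partial or variant sites were not searched. Promoters of 9 of the 10 members were available, in 10 windows, and C4b, which had none, was not searched. These matches are letters in a window and were not tested as binding sites.

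Per kilobase of the longest annotated transcript, Gfap was by far the most abundant member in SED mice, at 81.3 ± 2.76 CPM per kb. Vim stood at 20.9 ± 1.03 and Serpina3n at 15.2 ± 1.53 CPM per kb. Cp at 6.71 ± 0.544, C4b at 6.07 ± 0.390 and Ptgs2 at 4.89 ± 0.439 CPM per kb made up a middle group, in which Cp and C4b overlapped. S1pr3 at 1.92 ± 0.118, Osmr at 1.29 ± 0.113 and Cd44 at 1.17 ± 0.336 CPM per kb were low, and Osmr and Cd44 overlapped. Timp1, at 0.130 ± 0.0867 CPM per kb, was near the limit of detection.

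Osmr had the smallest p of the set when exercised mice were compared with restrained mice that did not exercise. Osmr encodes the signalling subunit of the oncostatin M receptor, which pairs with gp130. It stood at 6.46, 7.08 and 7.70 CPM in SED, at 6.12, 6.25 and 6.72 CPM in SUS, and at 9.03, 8.96 and 8.85 CPM in SUS_LE (92 to 114, 89 to 98 and 130 to 138 counts). All 3 exercised mice lay above all 6 others, while SED and SUS overlapped. The group means were 7.08 ± 0.622, 6.36 ± 0.315 and 8.95 ± 0.0932 CPM. Against SUS the exercised level was 1.41-fold higher (log2 fold change 0.49, SE 0.13), with an edgeR quasi-likelihood adjusted p = 0.138 over all 16106 tested genes, so it did not pass. Against SED the log2 fold change was 0.34 (SE 0.13, edgeR adjusted p = 0.658), and SUS against SED gave −0.16 (SE 0.14, edgeR adjusted p = 0.669). The spread of Osmr within groups, 0.0828 on the log2 scale, was below the 0.138 that counting error alone gives at this depth. The 3 exercised values are closer together than counting error alone would on average leave them. Which cell types carried the Osmr signal was not tested.

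Ptgs2 followed the same order. It encodes cyclooxygenase-2, the inducible enzyme of prostaglandin synthesis, and is used both as a reactive astrocyte gene and as an activity-induced gene of neurons. It stood at 23.2, 19.6 and 22.6 CPM in SED, at 22.3, 21.4 and 19.5 CPM in SUS, and at 26.9, 27.7 and 23.5 CPM in SUS_LE. Every exercised mouse lay above all 6 others, SUS_LE 3 by a small margin over SED 1. This did not hold once the mean centred log2 level of the astrocyte identity genes was subtracted from that of Ptgs2. SUS_LE 3 (−0.0416) then lay below SED 1 (0.0796), SED 3 (0.0350) and SUS 1 (−0.0386). With the same subtraction Osmr in the exercised mice, lowest in SUS_LE 3 (0.175), stayed above all others, highest in SED 3 (0.107). The exercised mean of 26.0 ± 2.25 CPM was 1.24-fold that of SUS, 21.1 ± 1.47 CPM (log2 fold change 0.31, SE 0.09, edgeR adjusted p = 0.171). Against SED, at 21.8 ± 1.95 CPM, the log2 fold change was 0.26 (SE 0.09, edgeR adjusted p = 0.633). SUS and SED overlapped (−0.05, SE 0.09, edgeR adjusted p = 0.875). Immediate early genes are a family induced by neuronal firing. Of 10, 9 had lower values in SUS_LE than in SUS (median log2 fold change −0.25), where 50.3% of all genes had higher ones. By edgeR 1 of 10 was under an unadjusted p of 0.05, against 13.7% of all genes. In SUS against SED 8 had higher values (median 0.36), where 49.9% of all genes did. There 6 of 10 were under an unadjusted edgeR p of 0.05, against 13.1% of all genes. Ptgs2 had a higher mean in SUS_LE than in SUS, and its value for SUS against SED was near 0. That value changed sign without SUS 3 (0.00399) and with GC and length trends removed (0.0562). Whether neurons or astrocytes carried the Ptgs2 signal was not tested.

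**Figure D1:**
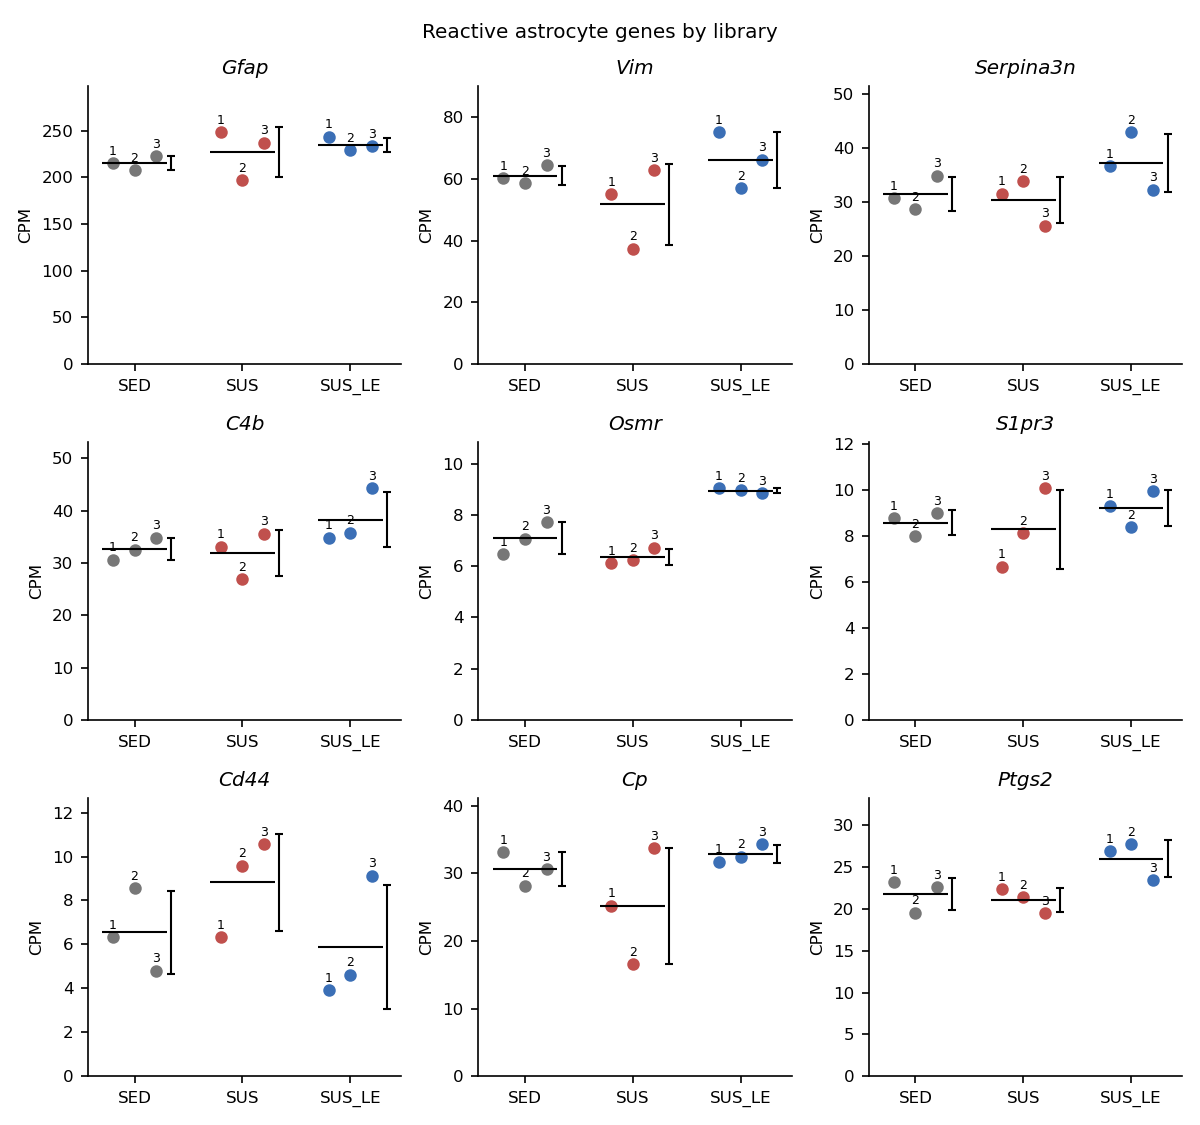
Levels of the 9 tested reactive astrocyte genes in CPM (y axis, from 0) in the 3 libraries of each group, numbered by replicate; horizontal lines are group means and the bars beside them ± SD of 3 mice. The exercised libraries lie above all others for Osmr (8.85 to 9.03 CPM) and Ptgs2 (23.5 to 27.7 CPM), while Vim and Cp are lowest in SUS 2 (37.4 and 16.6 CPM).

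Serpina3n and C4b, both secreted, had higher means in exercised than in SUS mice, with overlapping groups. Serpina3n, a serine protease inhibitor, stood at 30.7, 28.7 and 34.9 CPM in SED, at 31.5, 33.9 and 25.6 CPM in SUS, and at 36.6, 42.9 and 32.3 CPM in SUS_LE. SUS_LE 2 was the highest and SUS 3 the lowest of the 9 libraries. C4b, complement component 4, stood at 30.6, 32.5 and 34.8 CPM in SED, at 33.1, 26.9 and 35.6 CPM in SUS, and at 34.8, 35.8 and 44.2 CPM in SUS_LE, where SUS_LE 3 was the highest. Exercised against SUS mice, the log2 fold change was 0.30 for Serpina3n (SE 0.12, edgeR adjusted p = 0.316) and 0.26 for C4b (SE 0.11, edgeR adjusted p = 0.309). Without SUS_LE 3 the C4b value was 0.15, and without SUS 2 it was also 0.15. The Serpina3n value was 0.18 without SUS_LE 2 and 0.19 without SUS 3. The C4b counts are uncertain because its near-identical copy C4a, with 15 to 28 counts a library against 388 to 650 for C4b, could have taken or given reads. Serpina3n has relatives too, of which Serpina3g held 12 to 31 counts and 9 others 0 to 8 counts a library.

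The filament genes differed from each other. Gfap, the astrocyte filament protein, stood at 216, 208 and 223 CPM in SED, at 248, 197 and 237 CPM in SUS, and at 244, 229 and 233 CPM in SUS_LE. Its means were 215 ± 7.31, 228 ± 27.0 and 235 ± 7.51 CPM, and it was the steadiest member, the highest library being 1.26 times the lowest. SUS_LE lay above SED without overlap (log2 fold change 0.13, SE 0.07, edgeR adjusted p = 0.774), and SUS overlapped both. Against SUS the exercised value was 0.05 (SE 0.07, edgeR adjusted p = 0.811), and it became −0.05 without SUS 2.

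Vim, the filament protein vimentin, and Cp, ceruloplasmin, a copper enzyme that oxidises iron for export, shared a low value in SUS 2. Vim stood at 60.2, 58.7 and 64.5 CPM in SED, at 55.1, 37.4 and 62.9 CPM in SUS, and at 75.1, 57.0 and 66.3 CPM in SUS_LE. Cp stood at 33.1, 28.2 and 30.6 CPM in SED, at 25.2, 16.6 and 33.8 CPM in SUS, and at 31.8, 32.5 and 34.3 CPM in SUS_LE. For both genes the groups overlapped in every comparison, and SUS 2 was the lowest of the 9 libraries. Exercised against SUS mice, the log2 fold change was 0.35 for Vim (SE 0.19, edgeR adjusted p = 0.481) and 0.38 for Cp (SE 0.23, edgeR adjusted p = 0.516). Without SUS 2 these were 0.16 and 0.15, and without SUS 3 the Cp value was 0.65. SUS 2 was also the library lowest in meningeal fibroblast genes (mean centred log2 score −0.79, against −0.18 to 0.43 in the other 8), mural cell genes (−0.61, against −0.14 to 0.26) and endothelial genes (−0.19, against −0.06 to 0.17). With the mural cell score as a covariate, which was chosen after seeing the data, the log2 fold changes were 0.04 for Vim and 0.09 for Cp. In whole tissue, fewer cells of a type and less RNA per cell cannot be told apart.

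The other surface receptors were S1pr3 and Cd44. S1pr3, a receptor for sphingosine-1-phosphate, stood at 8.78, 7.99 and 8.99 CPM in SED, at 6.67, 8.12 and 10.1 CPM in SUS, and at 9.31, 8.38 and 9.94 CPM in SUS_LE. The SUS libraries spanned the whole range, and exercised against SUS gave a log2 fold change of 0.15 (SE 0.15, edgeR adjusted p = 0.690). That value was 0.0169 without SUS 1, 0.31 without SUS 3 and 0.0934 without SUS_LE 3. Cd44, the hyaluronan receptor, stood at 6.32, 8.55 and 4.80 CPM in SED, at 6.32, 9.58 and 10.6 CPM in SUS, and at 3.90, 4.61 and 9.12 CPM in SUS_LE. Cd44 was the only tested member with a lower mean in exercised than in SUS mice (5.88 ± 2.83 against 8.82 ± 2.22 CPM; log2 fold change −0.59, SE 0.37, edgeR adjusted p = 0.529), and SUS_LE 3 lay among the SUS values. Without SUS_LE 3 the value was −1.05, and without SUS_LE 1 it was −0.36. Cd44 varied more between mice of a group than any other member, with a biological coefficient of variation of 0.301, exceeded by 3.04% of tested genes. Timp1, an inhibitor of matrix metalloproteinases, held 1, 1 and 3 counts in SED, 1, 1 and 2 in SUS, and 5, 1 and 4 in SUS_LE. The ratio of its summed counts, exercised over SUS, was 2.44 with a 95% counting interval of 0.703 to 10.6, so no difference was detectable at this depth.

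The set did not separate restrained, susceptible mice from sedentary controls, a comparison in which restraint and selection cannot be told apart. Between SUS and SED, 0 of 9 tested members passed an edgeR adjusted p of 0.05, as did 0% of all 16106 genes, and 0 of 9 were under an unadjusted p of 0.05, against 13.1% of all genes. By limma voom and DESeq2, 0 members passed an adjusted p of 0.05. Gfap and Cd44 had higher means and the other 7 lower ones, where 49.9% of all genes were higher and 50.1% lower. No member had groups without overlap, against 18.3% of all genes. The values furthest from 0 were Cd44 at 0.43 (SE 0.36), Cp at −0.28 (SE 0.23) and Vim at −0.24 (SE 0.19). Without SUS 2 the values were −0.0581 for Cp and −0.0551 for Vim, and without SUS 3 they were −0.55 and −0.40. Cd44 was 0.25 without SED 3, 0.28 without SUS 3 and 0.67 without SED 2. The median over the members was −0.05, against −0.00 over all genes.

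Between SUS_LE and SUS, 8 of 9 tested members had higher means in SUS_LE, where 50.3% of all genes did. The median log2 fold change was 0.30 against 0.00 over all genes. Again 0 of 9 passed an edgeR adjusted p of 0.05, as did 0% of all genes, and 0 passed by limma voom or DESeq2. Osmr, Ptgs2, C4b and Serpina3n, 4 of 9 and all higher, were under an unadjusted p of 0.05, against 7.20% of all genes in that direction and 13.7% in both. The groups did not overlap for 2 of 9, Osmr and Ptgs2, against 8.61% of all genes in that direction and 17.0% in both. Under the alternatives the count at an unadjusted p of 0.05 ran from 2, with the choroid plexus score as a covariate, to 6, without the robust step. This comparison and the one of SUS with SED share the SUS libraries. In SUS_LE against SUS, exercise and any difference in age or in time since restraint cannot be told apart. In SUS_LE against SED, restraint and selection differ as well.

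**Figure D2:**
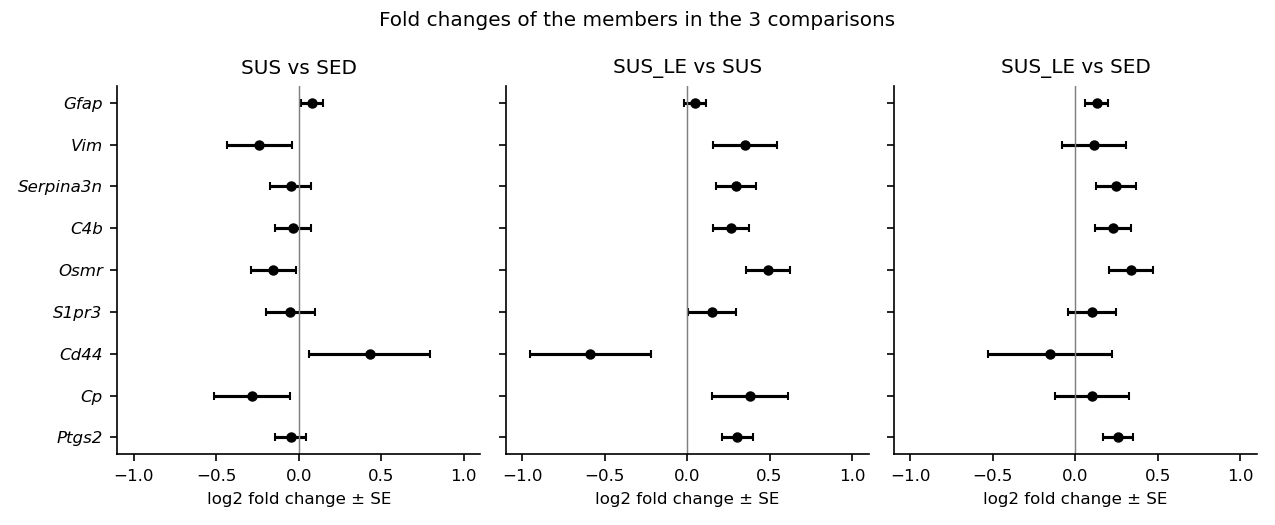
Log2 fold changes (x axis) of the 9 tested members in each of the 3 comparisons, points with bars of ± SE from the edgeR fit to all 9 libraries. In SUS_LE against SUS the points of 8 members lie to the right of 0 and Cd44 lies at −0.59; none passed an adjusted p of 0.05.

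Against unstressed controls, exercised mice also had higher means for 8 of 9 members, where 52.9% of all genes did, with a median of 0.13 against 0.01 over all genes. By edgeR 0 of 9 passed an adjusted p of 0.05, as did 0% of all genes. Osmr and Ptgs2 were under an unadjusted p of 0.05, 2 of 9, against 2.79% of all genes in that direction and 6.64% in both. The groups did not overlap for 4 of 9, Gfap, C4b, Osmr and Ptgs2, all higher in SUS_LE, against 7.54% of all genes in that direction and 16.2% in both. For C4b the margin was small, SUS_LE 1 and SED 3 both standing at 34.8 CPM. With the astrocyte identity level subtracted on the log2 scale, Gfap, C4b and Ptgs2 overlapped in this comparison and Osmr did not. Gfap was then −0.0343 in SUS_LE 3 and 0.0270 in SED 3, and C4b −0.0198 in SUS_LE 1 and 0.0800 in SED 3. In a test for any difference among the 3 groups, 0 members passed an adjusted p of 0.05 (0% of all genes), and Osmr and Ptgs2, 2 of 9, were under an unadjusted p of 0.05, against 13.5% of all genes.

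As a mean centred log2 score over the 9 tested members, SED libraries lay at −0.03, −0.05 and −0.00, SUS libraries at −0.11, −0.20 and 0.07, and SUS_LE libraries at 0.07, 0.07 and 0.20. SUS 3 was level with SUS_LE 1 and SUS_LE 2, and SUS 2 was the lowest. The summed level of the members was 399 to 432 CPM in SED, 357 to 442 CPM in SUS and 447 to 472 CPM in SUS_LE, of which Gfap made up the larger part. Marker genes of other cell types also differed in level between the groups, by values that did not pass an adjusted p of 0.05. Endothelial genes had higher means in SUS_LE than in SUS in 7 of 8, where 50.3% of all genes did. Their summed levels were 264 to 276 CPM in SED, 239 to 265 in SUS and 285 to 297 in SUS_LE. Astrocyte identity genes, 7 of 12 higher, had summed levels of 5490 to 5756, 5081 to 5310 and 5567 to 5810 CPM in the same order. Their sums in SUS and SUS_LE did not overlap, while their scores did (−0.05 to 0.01 and −0.02 to 0.08). Slc1a2 alone, with means of 3595 CPM in SUS and 3991 CPM in SUS_LE, made up the larger part of these sums. Mural cell genes (6 of 8 higher) had summed levels of 245 to 372 CPM in SUS and 348 to 414 in SUS_LE, and microglial genes (6 of 8 higher) 202 to 225 and 205 to 236 CPM. Meningeal fibroblast genes, 9 of 10 higher, had 528 to 1225 and 730 to 1186 CPM, and choroid plexus genes were lower in 10 of 10. All 8 endothelial, all 8 mural and all 8 microglial markers passed the filter on counts. Endothelial scores were 0.07 to 0.17 in SUS_LE, −0.03 to 0.02 in SED and −0.19 to −0.03 in SUS. Every exercised library lay above all others in this score, as it did for Osmr. Neither this score nor that of astrocyte identity was used as a covariate. The part of these cell types in the members' values was not tested beyond the covariates and the subtraction of the astrocyte identity level given here. With the choroid plexus, meningeal fibroblast or mural cell score as a covariate, the Osmr value for SUS_LE against SUS was 0.51, 0.48 and 0.44, and the Ptgs2 value 0.29, 0.35 and 0.37.

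**Figure D3:**
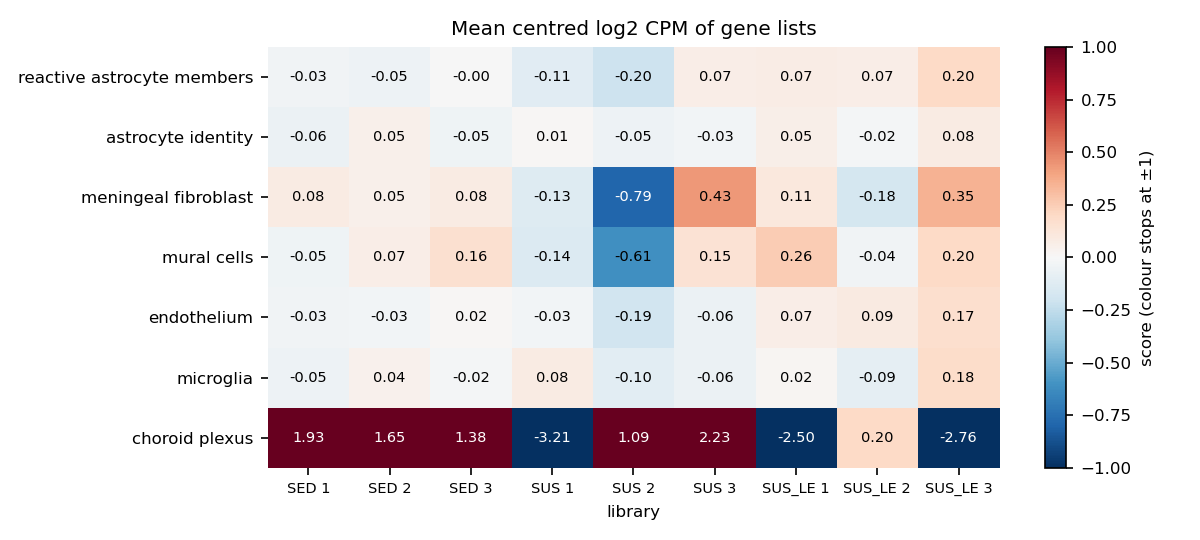
Mean centred log2 CPM of the reactive astrocyte members and of 6 marker lists (rows) in each of the 9 libraries (columns), printed in each cell; colours stop at ±1. The members are lowest in SUS 2 (−0.20), the library in which meningeal fibroblast (−0.79) and mural cell genes (−0.61) are lowest too, and highest in SUS_LE 3 (0.20).

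Over the 9 libraries, 36 pairs of members were compared, and none passed adjustment. Serpina3n and Ptgs2 had r = 0.883 (exact permutation p = 0.00179, Benjamini-Hochberg adjusted p = 0.0646; rho = 0.783, exact permutation p = 0.0172, adjusted p = 0.193), and r = 0.741 without the 2 libraries furthest from the median. Vim and Cp had r = 0.896 (exact permutation p = 0.00957, adjusted p = 0.122; rho = 0.633, exact permutation p = 0.0760, adjusted p = 0.274), and r = 0.682 without 2 libraries. Cd44 and Ptgs2 ran opposite, with r = −0.800 (exact permutation p = 0.0101, adjusted p = 0.122; rho = −0.767, exact permutation p = 0.0214, adjusted p = 0.193), and r = −0.633 without 2 libraries. In each pair the 2 libraries left out were those furthest from the median of the first-named gene only. With group means removed, over all 9 libraries, r was 0.804, 0.838 and −0.857. Among all other tested genes, the one most like each member over the 9 libraries was Ctdspl2 for Osmr (r = 0.960), Dtx3l for Ptgs2 (0.970), Trnau1ap for Gfap (0.937), Pln for Vim (0.972), Dlg3 for Serpina3n (0.960), Terf2ip for C4b (0.978), Zbtb39 for S1pr3 (0.929), Mrpl40 for Cd44 (0.974) and Fam217a for Cp (0.974). The genes most like the mean of the members were Mpzl2 (0.964), Il13ra2 (0.952), Wnt6 (0.939), Skap2 (0.939) and Fn1 (0.936), each r being the highest of many and given as a description.

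Other genes of the astrocyte response were set beside the members. Among 12 genes of the A1 state, described in mice after inflammation, 11 were tested. All 11 had higher means in SUS_LE than in SUS (median log2 fold change 0.38), where 50.3% of all genes did. In SUS against SED 8 of 11 had lower means (median −0.20), where 50.1% of all genes did. The mean centred log2 score of this list was −0.16, −0.42 and 0.04 in SUS, so that SUS 2 was the lowest. It was −0.03 to 0.04 in SED and 0.13 to 0.26 in SUS_LE. H2-D1, an MHC class I heavy chain, stood at 12.8, 15.4 and 13.2 CPM in SED, at 14.9, 13.3 and 16.2 CPM in SUS, and at 18.9, 21.6 and 19.6 CPM in SUS_LE. All exercised mice lay above all others (0.43, SE 0.11, edgeR adjusted p = 0.116 against SUS, and 0.54, SE 0.11, edgeR adjusted p = 0.317 against SED). Iigp1, an interferon-induced GTPase, stood at 1.58, 1.53 and 2.06 CPM in SUS and at 2.26, 6.11 and 3.27 CPM in SUS_LE (1.17, SE 0.31, edgeR adjusted p = 0.138). Its SED values of 2.46, 2.59 and 2.16 CPM overlapped those of SUS_LE. Srgn, the proteoglycan serglycin, stood at 4.33, 4.44 and 4.80 CPM in SUS and at 7.80, 5.39 and 6.47 CPM in SUS_LE (0.53, SE 0.17, edgeR adjusted p = 0.174), and its SED values of 5.07 to 5.75 CPM overlapped those of SUS_LE. These 3 of 11 were the members of the A1 list under an unadjusted p of 0.05, against 7.20% of all genes in that direction and 13.7% in both, and Srgn, H2-D1 and Iigp1 are made by immune or vessel cells as well. Ptprc, the leukocyte antigen CD45, stood at 3.01 to 4.07 CPM in SED, 1.99 to 3.15 in SUS and 3.90 to 4.49 in SUS_LE, so that SUS was the low group and SED overlapped both (0.79, SE 0.22, edgeR adjusted p = 0.145 for SUS_LE against SUS).

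Of 11 genes of the A2 state, described in mice after ischaemia, 7 were tested. In SUS_LE against SUS 4 had higher and 3 lower means (median log2 fold change 0.30), where 50.3% of all genes had higher ones. By edgeR 0 of 7 were under an unadjusted p of 0.05, against 13.7% of all genes. In SUS against SED 5 of 7 had lower means (median −0.15), where 50.1% of all genes did. The A1 and A2 lists were not tested against each other. Among 5 further genes common to reactive states, Aspg (0.55, SE 0.33) and Hspb1 (0.27, SE 0.20) had higher and Steap4 (−0.75, SE 0.81) lower means in SUS_LE than in SUS, with edgeR adjusted p = 0.484, 0.581 and 0.729. Lcn2, lipocalin 2, and the chemokine Cxcl10 were too low to test. Lcn2, singled out after its values were seen, held 1, 0 and 1 counts in SED, 2, 2 and 1 in SUS, and 6, 20 and 12 in SUS_LE. All 3 exercised libraries lay above all others, and the ratio of summed counts was 7.41 over SUS (95% counting interval 2.91 to 24.1) and 18.4 over SED (4.76 to 157.5), intervals that cover counting error only and not the spread between mice. With no filter on low counts, edgeR gave Lcn2 an adjusted p of 0.0147 against SUS and 0.00143 against SED, in a fit that called 430 and 218 genes of 26992 where the filtered fit called 0. The neutrophil genes S100a8 and S100a9, named here because neutrophils also make Lcn2, were read beside it. S100a8 held 0, 1 and 1 counts in SED, 0, 0 and 2 in SUS, and 5, 3 and 7 in SUS_LE. S100a9 held 6, 3 and 2 counts in SED, 3, 1 and 3 in SUS, and 17, 5 and 3 in SUS_LE. The part of neutrophils in the Lcn2 counts was not tested.

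**Figure D4:**
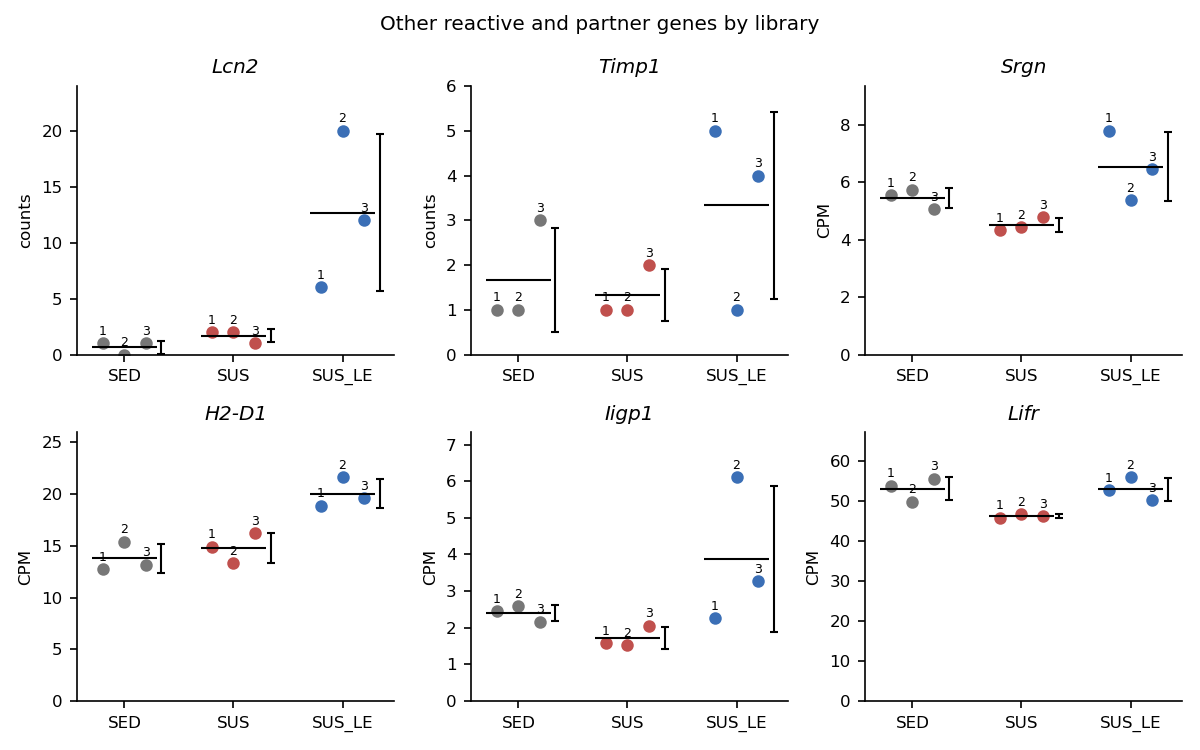
Counts of Lcn2 and Timp1 and levels in CPM of Srgn, H2-D1, Iigp1 and Lifr (y axes, from 0) in the 3 libraries of each group, numbered by replicate, with lines at group means and bars of ± SD of 3 mice. Lcn2 holds 6 to 20 counts in exercised mice and at most 2 in the others, and H2-D1 lies at 18.9 to 21.6 CPM in exercised mice.

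Osmr signals together with gp130, so the ligands, receptors and kinases of that pathway were read beside it. Of 16 genes 12 were tested, and 7 had higher and 5 lower means in SUS_LE than in SUS, with a median of 0.01, where 50.3% of all genes had higher ones. By edgeR 2 of 12, Lifr and Jak1, were under an unadjusted p of 0.05 there, against 13.7% of all genes. In SUS against SED 2 of 12 were, Lifr and Il6st, against 13.1%. Both counts are near the share over all genes. Lifr, the receptor for leukaemia inhibitory factor, stood at 53.9, 49.9 and 55.6 CPM in SED, at 45.8, 46.8 and 46.3 CPM in SUS, and at 52.7, 56.0 and 50.3 CPM in SUS_LE. SUS lay below both other groups without overlap (−0.20, SE 0.07, edgeR adjusted p = 0.213 against SED, and 0.19, SE 0.07, edgeR adjusted p = 0.195 for SUS_LE against SUS). Groups did not overlap for 18.3% and 17.0% of all genes in these comparisons. Il6st, gp130 itself, had a log2 fold change of −0.17 in SUS against SED (SE 0.07, edgeR adjusted p = 0.285) and 0.09 in SUS_LE against SUS (SE 0.07, edgeR adjusted p = 0.567). The kinase Jak1 was at 0.13 in SUS_LE against SUS (SE 0.06, edgeR adjusted p = 0.325). Stat3, at −0.01 (SE 0.09), and its feedback inhibitor Socs3, at 0.41 (SE 0.43), had overlapping groups in the same comparison. The ligands Osm, Lif and Il6 were too low to test.

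Partners of the filament genes had lower means where Vim had a higher one, though the Vim value of 0.35 fell to 0.16 without SUS 2 and to 0.04 with the mural cell covariate. Exercised against SUS mice, all 5 of Nes, Synm, Plec, Lmna and Cryab had lower means, with a median of −0.19, where 50.3% of all genes had higher ones. By edgeR 3 of 5 were under an unadjusted p of 0.05, against 13.7% of all genes. Plec, the linker protein plectin, stood at 268, 239 and 234 CPM in SUS and at 222, 218 and 208 CPM in SUS_LE (−0.19, SE 0.05, edgeR adjusted p = 0.146). Lmna, which encodes lamins A and C, stood at 25.7, 23.9 and 27.8 CPM in SUS and at 19.2, 22.2 and 21.2 CPM in SUS_LE (−0.30, SE 0.09, edgeR adjusted p = 0.148). Neither gene had overlapping groups, which was also so for 17.0% of all genes. Nes, nestin, was at −0.36 with overlap (SE 0.14, edgeR adjusted p = 0.269), and Synm, synemin, at −0.02 (SE 0.06, edgeR adjusted p = 0.912).

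The pathways of the other members were read in SUS_LE against SUS, where 13.7% of all genes were under an unadjusted p of 0.05. There 50.3% of all genes had higher means, and groups did not overlap for 17.0%. Of 12 tested complement genes besides C4b, 8 had higher and 4 lower means, with 1 of 12 under an unadjusted p of 0.05, C1qa at −0.28 (SE 0.12, edgeR adjusted p = 0.294), and C3 at 0.19 (SE 0.29, edgeR adjusted p = 0.826). Of 12 tested prostaglandin genes, 9 had higher means and 1 was under an unadjusted p of 0.05. Pla2g4a, the phospholipase that frees arachidonic acid for cyclooxygenase, stood at 2.41, 2.43 and 2.47 CPM in SUS, at 3.35, 5.20 and 3.40 CPM in SUS_LE and at 4.28, 2.94 and 3.58 CPM in SED. SUS lay below both other groups (0.71, SE 0.23, edgeR adjusted p = 0.178 for SUS_LE against SUS). Ptgs1, the constitutive cyclooxygenase, was at 0.29 without overlap (SE 0.14, edgeR adjusted p = 0.378).

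Of 8 tested iron genes 3 were under an unadjusted p of 0.05 in SUS_LE against SUS, against 13.7% of all genes. Groups did not overlap for 17.0% of all genes in this comparison. Tfrc, the transferrin receptor, was higher in SUS_LE than in SUS without overlap (0.30, SE 0.08, edgeR adjusted p = 0.129), Ireb2, an iron sensor, was at 0.18 (SE 0.08, edgeR adjusted p = 0.323) and Ftl1, the ferritin light chain, at −0.19 (SE 0.06, edgeR adjusted p = 0.181). Of 8 tested genes of sphingosine-1-phosphate 1 was under an unadjusted p of 0.05, near the share over all genes. This gene, Sphk2, a kinase that makes sphingosine-1-phosphate, was at −0.36 without overlap (SE 0.10, edgeR adjusted p = 0.148). Of 9 tested hyaluronan genes 1 was, also near that share. This gene, Vcan, the hyaluronan-binding proteoglycan versican, was at 0.23 without overlap (SE 0.10, edgeR adjusted p = 0.291), after −0.36 in SUS against SED (SE 0.10, edgeR adjusted p = 0.155). Among 11 tested metalloproteinases and inhibitors 2 were, of which Mmp16 was at 0.29 (SE 0.10, edgeR adjusted p = 0.195) and Mmp14 at −0.35 (SE 0.13, edgeR adjusted p = 0.264). The relatives of Timp1 were abundant and lay close to 0, with Timp2 at −0.07 (SE 0.11), Timp3 at 0.04 (SE 0.14) and Timp4 at −0.10 (SE 0.10).

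**Figure D5:**
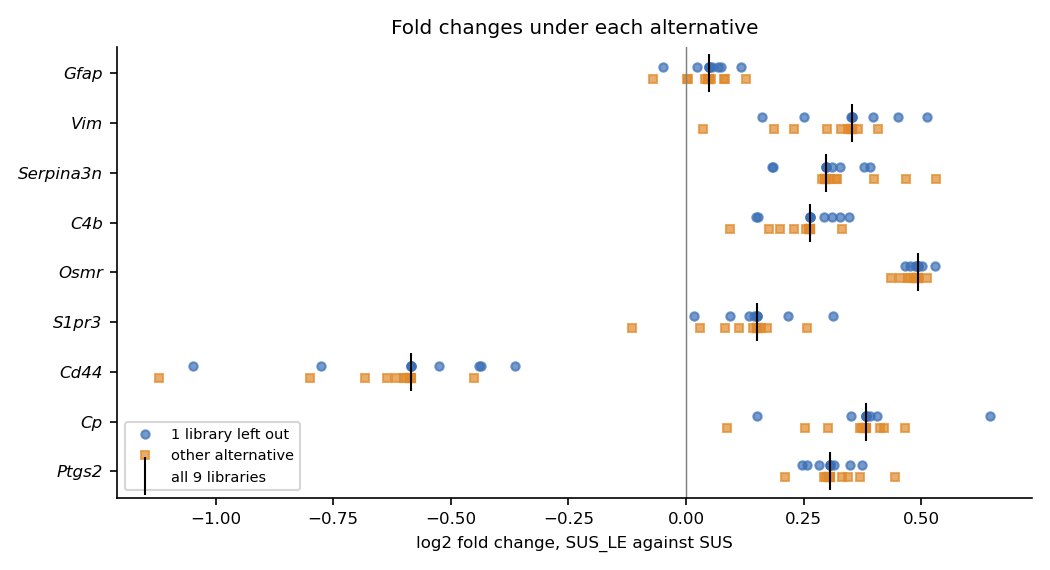
Log2 fold changes of the 9 tested members in SUS_LE against SUS (x axis) with 1 library left out (circles) and under the other alternatives (squares); black ticks mark the fit to all 9 libraries. Osmr stays between 0.44 and 0.53 and Ptgs2 between 0.21 and 0.44. Vim, Cp and Cd44 are spread widely, and Gfap and S1pr3 reach below 0. The fit without the 3 libraries lowest in Ttr, 1 of the squares, kept SUS_LE 2 as the only exercised library.

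Across 23 alternatives, the SUS_LE against SUS value ran from 0.44 to 0.53 for Osmr (edgeR, limma or DESeq2 adjusted p = 0.0673 to 0.503) and from 0.21 to 0.44 for Ptgs2 (adjusted p = 0.0646 to 0.554 by the same tools). Both were under an unadjusted p of 0.05 in all 23 of these and passed an adjusted p of 0.05 in 0.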

How the data were processed

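Total RNA from ventral hippocampus was sequenced, 1 library per mouse. The submitters' processing notes name fastp, STAR, Salmon and GRCm39, without versions or roles. The authors deposited counts per gene symbol, as whole numbers that were not normalized. The annotation, strand setting, use of molecular identifiers and any rounding of Salmon estimates are not given in the sources used here. File headers call the exercised libraries 2 to 4, whereas the labels count 1 to 3, and replicate numbers here follow the labels.

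The 16106 genes kept by the edgeR filter on low counts (at least 99.9% of counts) were scaled by TMM and fitted with edgeR 4.0.16 (R 4.3.3), quasi-likelihood with robust dispersion, group as the only term and all 9 libraries. P values were adjusted by Benjamini-Hochberg over all tested genes, with a threshold of 0.05. Log2 CPM for scores and correlations used a prior count of 2. Ratios of low counts have exact 95% intervals that cover counting error only. Per-length levels used GENCODE M21 transcripts matched by symbol. Replicate libraries differed by more than sampling noise (chi-square per degree of freedom 2.77 to 15.5). The fit was tested on simulated counts.

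Members, gene lists and alternatives were chosen with earlier results of these data known. All 10 members are described. Of other lists the text names genes under an unadjusted p of 0.05, or the 4 with the smallest p, and direct partners or paralogs. Alternatives were DESeq2 1.42.0, limma 3.58.1 voom, other scaling, other count filters, only the 2 groups compared, replicate block, no robust step, each library left out, scores of other cell types as covariates, leaving out the 3 libraries lowest in Ttr, and removal of GC and length trends. The 3 libraries lowest in Ttr were SUS 1, SUS_LE 1 and SUS_LE 3, so that leaving them out kept SUS_LE 2 as the only exercised mouse. The mural cell covariate and the GC and length correction were added after seeing the data.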

Additional observations from a re-analysis of the deposited data

How the results depend on the processing

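Of 27 fold changes of members under 23 alternatives each, 599 values kept their direction and side of the threshold, 21 changed sign and 1 newly passed. The count of members past an adjusted p of 0.05 was 0 throughout except with no filter on low counts, where it was 1 in SUS_LE against SUS and 1 in the test among the 3 groups: Serpina3n, edgeR adjusted p = 0.0257 for SUS_LE against SUS, in fits that called 430 and 695 genes. For SUS against SED, values with 1 library left out ran from −0.14 to 0.0551 for Serpina3n, −0.12 to 0.0696 for C4b, −0.22 to 0.0835 for S1pr3 and −0.12 to 0.00399 for Ptgs2. C4b was 0.0425 with the meningeal and 0.0964 with the mural cell covariate. S1pr3 was 0.0249 with the choroid plexus, 0.00940 with the meningeal and 0.0403 with the mural cell covariate, and 0.0801 without the 3 libraries lowest in Ttr. Ptgs2 was 0.0562 with GC and length trends removed. For SUS_LE against SUS, Gfap ran from −0.0494 to 0.12 with 1 library left out and was −0.0697 with the mural cell covariate, and S1pr3 was −0.11 without the 3 libraries lowest in Ttr. For SUS_LE against SED, leaving out those 3, which kept SUS_LE 2 as the only exercised mouse, gave −0.10 for Vim and −0.0345 for S1pr3. Cd44 ran from −0.62 to 0.0804 there with 1 library left out and was 0.0650 with the choroid plexus covariate. The cause was not tested for any of these. Members under an unadjusted p of 0.05 numbered 0 to 1 in SUS against SED, 2 to 6 in SUS_LE against SUS, 1 to 5 in SUS_LE against SED and 1 to 6 in the test among the 3 groups. Replicate numbers are not stated to pair animals, and same-numbered libraries deviated together in 2 of 9 pairs (r over 0.1, range −0.123 to 0.180). Differently numbered pairs reached similar values, such as 0.167 for SUS 3 with SUS_LE 2 and 0.146 for SED 1 with SUS 3, and one as low as −0.280 for SUS 1 with SUS_LE 2. With the replicate block 0 members passed an adjusted p of 0.05 in each comparison. About 100 counts a library limit Osmr, and 1 to 5 counts Timp1.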

Other observations

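Genes that mark astrocytes whether or not they are reactive were split in direction. In SUS against SED, 4 of 12 had lower and 3 of 12 higher values under an unadjusted p of 0.05, against 13.1% of all genes in both directions, and 0 passed an edgeR adjusted p of 0.05. The bicarbonate transporter Slc4a4 stood at 180, 183 and 183 CPM in SED, at 153, 165 and 147 CPM in SUS, and at 175, 187 and 189 CPM in SUS_LE, so that SUS lay below both other groups. Its log2 fold change was −0.23 in SUS against SED (SE 0.05, edgeR adjusted p = 0.124) and 0.24 in SUS_LE against SUS (SE 0.05, edgeR adjusted p = 0.0998). The water channel Aqp4 gave −0.22 (SE 0.06, edgeR adjusted p = 0.165) and 0.26 (SE 0.06, edgeR adjusted p = 0.116). S100b, a calcium-binding protein, gave 0.23 in SUS against SED (SE 0.07, edgeR adjusted p = 0.184). The transcription factor Sox9 gave −0.26 in SUS_LE against SUS (SE 0.07, edgeR adjusted p = 0.148), opposite to Gjb6, a gap junction protein, at 0.36 (SE 0.12, edgeR adjusted p = 0.195). The paired values share the SUS libraries.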
